A study of Homo sapiens with 8 samples.

Results

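This account covers 36 genes of fatty acid synthesis and of the ceramides of the epithelial barrier, taken by symbol from the 25369 genes of the deposited expression table, and all 36 were found. RNA was sequenced from EPC2-hTERT, an esophageal epithelial line made immortal with telomerase, in 2 stable lines that both carry a lentiviral short hairpin RNA, a control hairpin (shCtrl) or a hairpin against HIF1A (HIF1A-KD). Each line has 4 libraries, numbered 1 to 4. Both were grown on membranes with pores of 0.4 µm, to confluence for 2 days, then for 5 days with 1.8 mM calcium chloride and for 4 days with the upper face in air. A vehicle and the hydroxylase inhibitor dimethyloxalylglycine are named in the protocol and assigned to no library, and nothing says that the libraries came from separate cultures, so p-values measure the spread between these libraries, which may be technical. Values are RPKM, reads scaled by gene length and by the library's total, from libraries whose implied totals ran from 38068729 to 65326907 reads. A change is the HIF1A-KD minus the shCtrl mean of log2(RPKM + 0.1), and the measurements describe whole cultures, in which fewer cells of a type and less RNA per cell cannot be told apart.

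The targeted transcript, HIF1A, held 95.2, 51.4, 89.8 and 122 RPKM in shCtrl 1 to 4 and 27.6, 19.0, 54.8 and 45.0 RPKM in HIF1A-KD 1 to 4. The HIF1A-KD library of each number was the lower one, although the value of HIF1A-KD 3 exceeded that of shCtrl 2. This gave a log2 change of −1.34 (SE 0.37), with an adjusted p of 0.319 unpaired and 0.0253 with the library number as a block (limma). The blocked call ended without the libraries numbered 1, 2 or 4 (adjusted p = 0.107, 0.187 and 0.0524). All 10 squamous epithelial markers were measured, with summed levels of 23185 to 29103 RPKM in shCtrl and 25264 to 29998 RPKM in HIF1A-KD. The 7 fibroblast markers summed to at most 0.145 RPKM in any library, and the leukocyte genes PTPRC and CD3E were at 0 in every library. The leukocyte and endothelial genes CD68 (19.0 to 115 RPKM) and VWF (0.652 to 15.3 RPKM) were detected. VWF was highest in shCtrl 1 (15.3 RPKM) and HIF1A-KD 1 (12.6 RPKM). LYZ, of the same list, held 10 reads over the shCtrl libraries and 106 over the HIF1A-KD libraries. In both lines the first principal component, which held 41.9% of the variance, put libraries 1 and 2 on one side and 3 and 4 on the other.

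Ceramides are built from a sphingoid base, made by serine palmitoyltransferase, and a fatty acyl chain attached by a ceramide synthase. Stratified epithelia use chains far longer than those of most membranes. The elongases of the ELOVL family lengthen the products of fatty acid synthase, and in the uppermost living layers the longest chains are hydroxylated at their far end, joined to linoleic acid, glucosylated, packed into lamellar granules and secreted. The lipids then fill the spaces between the outermost cells and hold back water. The human esophageal lining is of this stratified kind but does not normally cornify.

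Of the 36 genes, 34 had at least 0.5 RPKM in at least 4 libraries and were tested. None of the 34 passed the unpaired limma test at an adjusted p of 0.05, where 0.042% of all 11899 tested genes passed. At an unadjusted p of 0.05, 5 of the 34 were lower and 1 was higher, where 7.8% of all tested genes reached that level in either direction, and limma-voom on reads recovered from the RPKM also called 0 of the 34. With the number as a block, 11 of the 34 were lower and 3 higher at an unadjusted p of 0.05, where 7.74% and 11.9% of all tested genes were. After adjustment ELOVL4 alone passed, as a fall (adjusted p = 0.00909), where 1.09% of all tested genes passed as lower and 0.74% as higher. The next smallest adjusted p in that fit was 0.0583, for ELOVL7. The 34 log2 changes had a median of −0.06, against 0.06 for all tested genes, and 20 of the 34 were below 0, where 41.3% of all tested genes were. The HIF1A-KD library was the lower one of every number for 9 of the 34 (FASN, SCD, ELOVL4, ELOVL7, CERS2, CERS4, FA2H, CYP4F22 and PNPLA1), or 26.5%, where 10.7% of all tested genes were. It was the higher one of every number for 4 (SPTLC1, CERS3, ASAH1 and ACER1), or 11.8%, where 18.6% of all tested genes were. PNPLA1 is counted among the 9, the 20 below 0 and the 5 and 11 lower at an unadjusted p. It passed the filter of 0.5 RPKM through its shCtrl libraries, so the filter itself favoured its lower direction. Counts by number and blocked values take the numbers as labelled, yet libraries 3 and 4 correlated more crosswise between the lines (r = 0.463 and 0.613) than by number (0.252 and 0.257). Whether these 2 numbers are crossed was not tested.

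**Figure D1:**
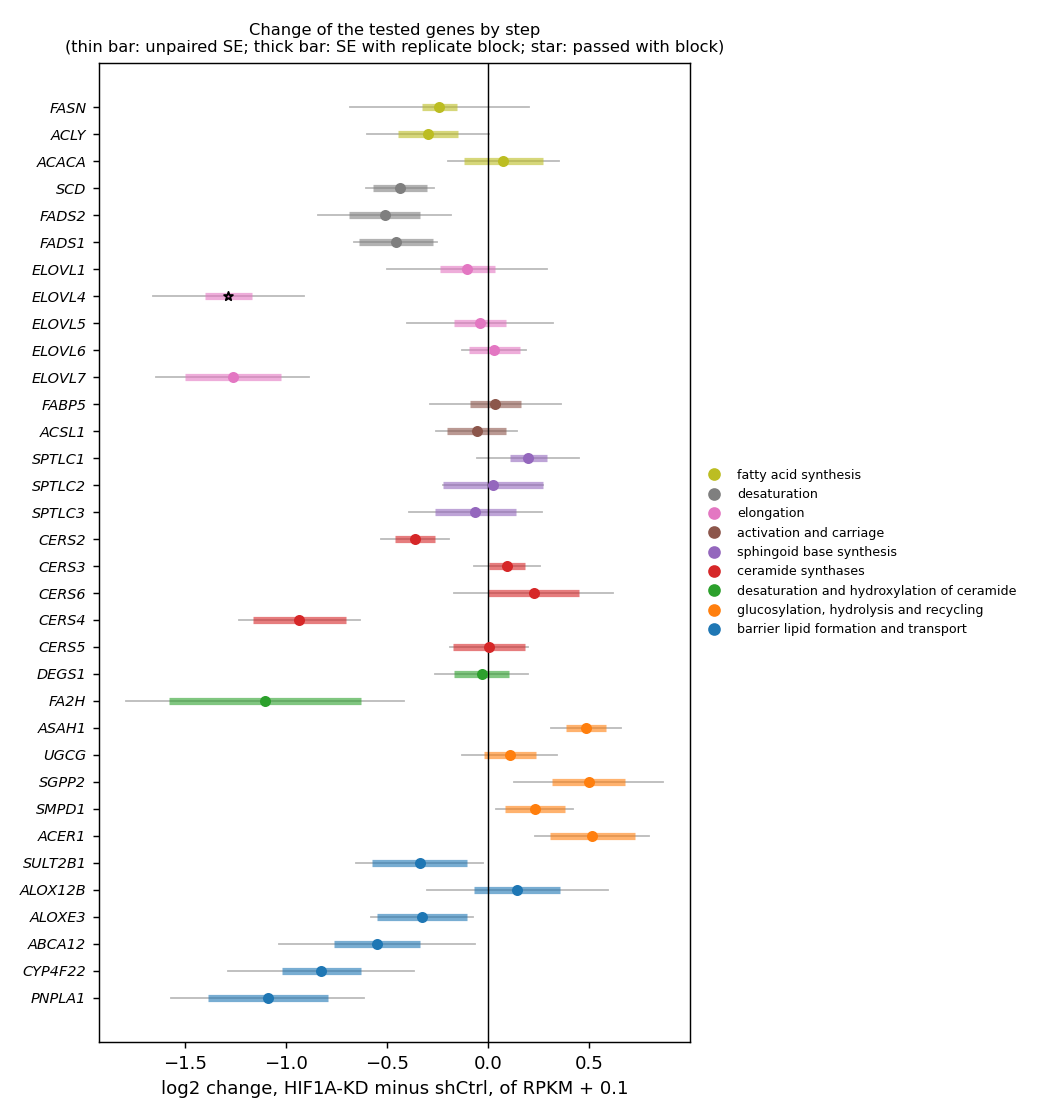
Log2 change of each of the 34 tested genes (x axis; HIF1A-KD minus shCtrl, of RPKM + 0.1), grouped and coloured by step; the thin grey bar is the standard error of the unpaired fit, the thick bar that of the fit with the library number as a block, n = 4 libraries a line. ELOVL4, the starred gene, lies at −1.29 with the narrower bar of its fit well away from 0; all 5 genes of glucosylation, hydrolysis and recycling lie to the right of 0.

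Elongation held the 2 largest differences among the 34 genes, and they were in ELOVL4 and ELOVL7. ELOVL4 (chromosome 6, 80624529 to 80657315, minus strand, hg19) makes the ultra-long acyl chains that acylceramides require. Its levels were 110.0, 59.2, 39.9 and 38.5 RPKM in shCtrl 1 to 4 and 35.8, 25.3, 19.5 and 15.8 RPKM in HIF1A-KD 1 to 4. The groups did not overlap, which was so with HIF1A-KD lower for 3 of the 34 genes and 2.13% of all tested genes, and with HIF1A-KD higher for 0 of the 34 and 3.27%. ELOVL4 averaged 61.9 ± 33.5 RPKM in shCtrl against 24.1 ± 8.73 RPKM in HIF1A-KD (SD, n = 4 each), so that HIF1A-KD held 39.0% of the shCtrl mean. Its log2 change was −1.29, with a standard error of 0.37 in the unpaired fit, in which it did not pass (adjusted p = 0.348), and of 0.12 with the block, in which it fell. The shCtrl mean leaned on shCtrl 1 and was 45.8 RPKM without it. The blocked call ended without the libraries numbered 2 (adjusted p = 0.0994) and held without those numbered 1, 3 or 4 (0.0139 to 0.0476), and within libraries 1 and 2 the log2 change was −1.42, within 3 and 4 −1.15.

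ELOVL7 (chromosome 5, 60047616 to 60140101, minus strand, hg19), an elongase of long saturated chains, held 16.5, 6.30, 5.49 and 6.07 RPKM in shCtrl 1 to 4. In HIF1A-KD 1 to 4 it held 4.20, 3.40, 3.37 and 2.00 RPKM, and every value lay below every shCtrl value. The single high library was shCtrl 1, without which the shCtrl mean was 5.95 RPKM. The log2 change was −1.26 (SE 0.38), which passed neither test (adjusted p = 0.357 unpaired and 0.0583 with the block). The other elongases showed no difference of that size. ELOVL1, which extends saturated chains to very long ones and was the most abundant of the family per length, averaged 103 ± 53.3 RPKM in shCtrl against 91.0 ± 32.1 RPKM in HIF1A-KD (SD, n = 4 each), with a log2 change of −0.10 (SE 0.40). That small estimate was above 0 in libraries 3 and 4 alone and on leaving out any 1 of shCtrl 1, shCtrl 2, HIF1A-KD 3 and HIF1A-KD 4. ELOVL5, which acts on polyunsaturated chains, averaged 17.3 RPKM (shCtrl) and 17.7 RPKM (HIF1A-KD) and ELOVL6, which turns palmitate into stearate, 7.96 RPKM (shCtrl) and 8.12 RPKM (HIF1A-KD). ELOVL3 was almost absent, with 44 reads over the 4 shCtrl libraries and 7 over the 4 HIF1A-KD libraries, and was not tested.

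ELOVL4 and ELOVL7 made up smaller shares of their family in HIF1A-KD. Of the summed RPKM of the 6 elongases, ELOVL4 made up 34.8%, 27.9%, 28.8% and 29.5% in shCtrl 1 to 4 and 20.7%, 14.8%, 16.3% and 14.0% in HIF1A-KD 1 to 4. The 2 ranges do not meet, and within shCtrl the share of ELOVL4 varied far less than its level. ELOVL7 made up 2.97% to 5.21% in shCtrl and 1.77% to 2.81% in HIF1A-KD, ranges that do not meet either. The shares are computed from the RPKM given above and are no separate evidence. ELOVL1 made up 50.3% ± 7.38 in shCtrl and 61.8% ± 8.89 in HIF1A-KD (SD, n = 4 each).

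**Figure D2:**
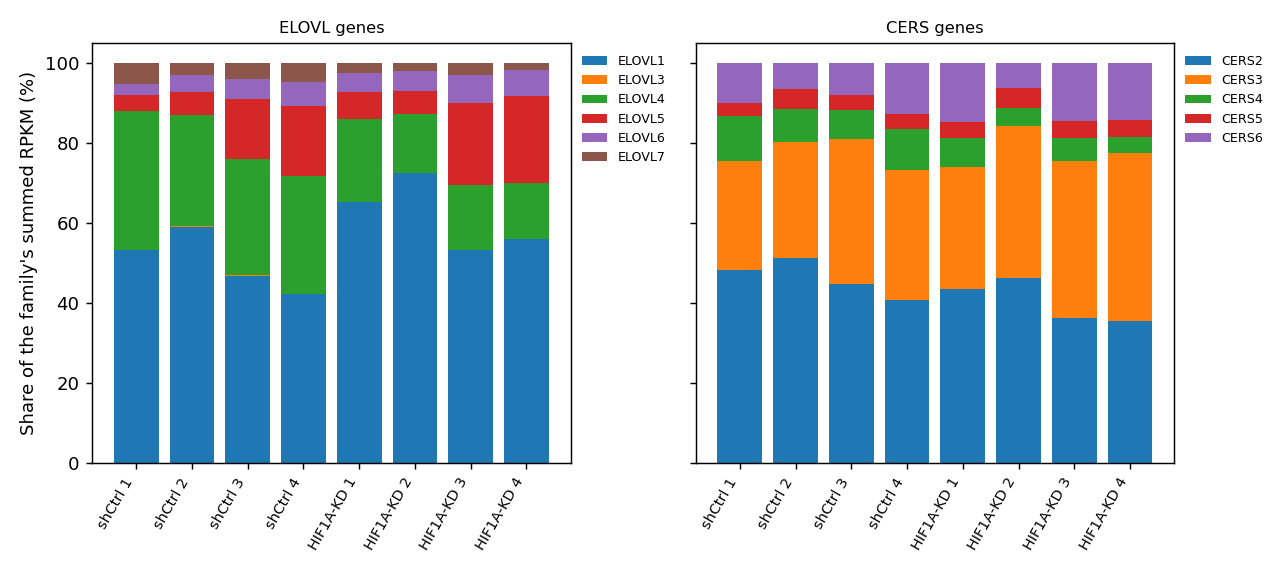
Share of each gene in the summed RPKM of the elongase (ELOVL) family, left, and the ceramide synthase (CERS) family, right, in percent (y axis), 1 bar a library. The ELOVL4 band spans 27.9% to 34.8% in the shCtrl bars and 14.0% to 20.7% in the HIF1A-KD bars, and ELOVL5 takes a wider band in libraries 3 and 4 of both lines; in the right panel CERS2 and CERS3 together fill most of every bar.

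Sequences just upstream of the 3 genes whose groups did not overlap, ELOVL4, ELOVL7 and SCD, are shown because HIF-1 binds a short core, ACGTG or GCGTG, in the DNA of its targets. Each is the 250 bases before the gene's start in RefSeq (build GRCh38.p14), 5′ to 3′ on the gene's strand. Capitals mark each match to ACGTG or GCGTG on either strand. ELOVL4 lies on the minus strand (chr6:79947554-79947803), ELOVL7 on the minus strand (chr5:60844270-60844519) and SCD on the plus strand (chr10:100346983-100347232).
ELOVL4: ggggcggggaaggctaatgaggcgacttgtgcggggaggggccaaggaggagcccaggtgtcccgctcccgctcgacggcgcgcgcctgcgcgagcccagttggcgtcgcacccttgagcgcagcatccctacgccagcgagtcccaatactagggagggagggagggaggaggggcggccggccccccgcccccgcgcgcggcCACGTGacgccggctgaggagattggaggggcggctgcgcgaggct
ELOVL7: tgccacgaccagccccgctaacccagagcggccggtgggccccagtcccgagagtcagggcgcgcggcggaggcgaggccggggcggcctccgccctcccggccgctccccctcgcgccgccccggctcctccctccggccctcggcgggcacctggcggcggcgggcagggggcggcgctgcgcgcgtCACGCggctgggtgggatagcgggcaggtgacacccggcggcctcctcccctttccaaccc
SCD: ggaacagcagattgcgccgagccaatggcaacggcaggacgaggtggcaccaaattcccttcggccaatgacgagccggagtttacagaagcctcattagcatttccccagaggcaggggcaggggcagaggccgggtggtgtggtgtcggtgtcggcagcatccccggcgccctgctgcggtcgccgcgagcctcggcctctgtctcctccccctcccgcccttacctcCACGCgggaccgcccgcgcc
In ELOVL4 the capitals span 46 to 41 bases before the start and hold 2 overlapping matches, 1 on each strand, which together read as the palindrome CACGTG. ELOVL7 holds 1 match, 61 to 57 bases before the start, and SCD 1 match, 20 to 16 bases before it. Such a core is common: 43.2% of the 35116 RefSeq windows of that length hold at least 1. Of the 30 genes of the set that have a window, 22 have a core in at least 1 window. The set is counted by gene and the whole by window, here and below, so the 2 shares are not alike in kind. Whether the set differs from the rest was not tested. ELOVL5 and ELOVL6, whose log2 changes were −0.04 and 0.03, are among the 22. The pentamer CCAAT, a common promoter element, occurs 2 times in ELOVL4, 2 times in SCD and in no such window of ELOVL7. It is in the windows of 15 of the 30 genes and in 32% of all windows (both strands). The sterol response element SRE-1, searched as 1 fixed word on both strands, was in 0 of the 30 genes' windows and 0.0342% of all windows. A match is a string of letters, and no binding was measured.

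In fatty acid synthesis itself none of the 3 genes passed either test. FASN, the synthase that makes palmitate, held 74.0, 70.0, 28.5 and 27.2 RPKM in shCtrl 1 to 4 and 59.7, 55.0, 25.5 and 24.4 RPKM in HIF1A-KD 1 to 4. Each HIF1A-KD value lay a little below the shCtrl value of its number, and the gap between numbers 1 and 2 and numbers 3 and 4 was far larger than that between the lines. The log2 change was −0.24 (SE 0.44), with an adjusted p of 0.985 unpaired and 0.202 with the block. Leaving out a library moved it between −0.48 (without shCtrl 4) and −0.00081 (without shCtrl 1). ACLY, which splits citrate into the acetyl-CoA that feeds the synthase, held 36.6, 64.8, 33.8 and 25.2 RPKM in shCtrl 1 to 4 against 32.2, 42.7, 22.7 and 28.2 RPKM in HIF1A-KD 1 to 4, lower in 3 of 4 numbers (log2 change −0.30, SE 0.30, adjusted p = 0.94). Without shCtrl 2, its highest library, the log2 change of ACLY was −0.038. ACACA, the carboxylase that makes malonyl-CoA, averaged 7.91 ± 2.50 RPKM in shCtrl against 8.12 ± 1.78 RPKM in HIF1A-KD (SD, n = 4 each).

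The 3 fatty acid desaturase genes of the set all had lower means in HIF1A-KD, and none passed. SCD (chromosome 10, 102106772 to 102124588, plus strand, hg19), which places the double bond of oleate, was among the most abundant genes of the set, with 349, 449.8, 354 and 414 RPKM in shCtrl 1 to 4. In HIF1A-KD 1 to 4 it held 345, 289, 279 and 246 RPKM, all below the lowest shCtrl value, though HIF1A-KD 1 missed it by little. SCD averaged 392 ± 48.7 RPKM in shCtrl against 289.8 ± 41.1 RPKM in HIF1A-KD (SD, n = 4 each), a log2 change of −0.44 (SE 0.17) with an adjusted p of 0.536 unpaired and 0.157 with the block. FADS2 and FADS1, the desaturases of polyunsaturated fatty acids, lie head to head on chromosome 11. Their annotated spans overlap by 855 bases on opposite strands, and since the labels do not say whether counting used strand, reads from the overlap cannot be told apart. FADS2 held 30.4, 24.9, 14.8 and 14.9 RPKM in shCtrl 1 to 4 against 22.6, 12.5, 15.2 and 9.32 RPKM in HIF1A-KD 1 to 4, with a log2 change of −0.51 (SE 0.33) and adjusted p of 0.815 unpaired and 0.182 with the block. FADS1 held 6.69, 6.44, 4.83 and 4.46 RPKM in shCtrl 1 to 4 against 3.85, 3.74, 4.86 and 3.64 RPKM in HIF1A-KD 1 to 4, with a log2 change of −0.46 (SE 0.21) and adjusted p of 0.649 unpaired and 0.243 with the block. For both, library 3 of the 2 lines held nearly equal levels. The mean difference was larger in libraries 1 and 2 (−0.71 for FADS2 and −0.77 for FADS1) than in libraries 3 and 4 (−0.32 and −0.14). For FADS2, however, number 4 (−0.67) differed more than number 1 (−0.42).

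Neither gene of fatty acid activation and carriage passed a test. FABP5, the fatty acid-binding protein of keratinocytes, was the most abundant of the 36 genes per length, at 867, 1316, 1651 and 1965 RPKM in shCtrl 1 to 4 and 964, 1145, 2172 and 1697 RPKM in HIF1A-KD 1 to 4. The lines overlapped throughout (log2 change 0.03, SE 0.32, adjusted p = 0.999), and the sign of so small an estimate changed with the scaling. FABP5 has near-identical pseudogene copies, so its count is uncertain. ACSL1, an acyl-CoA synthetase, averaged 33.2 ± 5.81 RPKM in shCtrl against 32.0 ± 6.75 RPKM in HIF1A-KD (SD, n = 4 each), with a log2 change of −0.06 (SE 0.20).

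None of the 3 genes of the sphingoid base step passed either. SPTLC1, the shared subunit of serine palmitoyltransferase, held 24.2, 24.4, 40.2 and 38.1 RPKM in shCtrl 1 to 4 against 31.1, 26.3, 44.0 and 43.5 RPKM in HIF1A-KD 1 to 4. It was slightly higher in HIF1A-KD in 4 of 4 numbers (log2 change 0.20, SE 0.25, adjusted p = 0.965 unpaired and 0.298 with the block). The catalytic subunits SPTLC2 and SPTLC3 averaged 9.70 RPKM (shCtrl) and 9.88 RPKM (HIF1A-KD) and 9.25 RPKM (shCtrl) and 9.54 RPKM (HIF1A-KD).

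Among the 5 ceramide synthases the largest differences were in CERS4 and CERS2, and none of the 5 passed. CERS4, which uses long acyl chains, held 11.0, 7.16, 6.22 and 9.67 RPKM in shCtrl 1 to 4 and 6.65, 3.16, 5.20 and 3.10 RPKM in HIF1A-KD 1 to 4. HIF1A-KD 1 reached above shCtrl 3, so the groups overlapped, yet each number had its lower value in HIF1A-KD. The differences by number were −0.71, −1.16, −0.25 and −1.61 for numbers 1 to 4, small in number 3 and large in number 4. The log2 change was −0.93 (SE 0.30), with an adjusted p of 0.413 unpaired and 0.102 with the block. CERS2, which prefers very long chains and was the most abundant synthase per length, held 47.0, 43.8, 37.8 and 38.8 RPKM in shCtrl 1 to 4 against 39.6, 32.0, 32.8 and 26.5 RPKM in HIF1A-KD 1 to 4. Its log2 change was −0.36 (SE 0.17), also lower in 4 of 4 numbers, and it passed neither test (adjusted p = 0.677 unpaired and 0.126 with the block). CERS3, the epidermal synthase, which handles the ultra-long chains that ELOVL4 supplies, averaged 28.4 ± 3.13 RPKM in shCtrl against 30.3 ± 4.21 RPKM in HIF1A-KD (SD, n = 4 each). CERS5 and CERS6, which prefer palmitoyl chains, averaged 3.51 RPKM (shCtrl) and 3.49 RPKM (HIF1A-KD) and 8.52 RPKM (shCtrl) and 10.4 RPKM (HIF1A-KD). Of the family's summed RPKM, CERS4 held 9.28% ± 1.75 in shCtrl against 5.44% ± 1.41 in HIF1A-KD, and CERS3 31.4% ± 3.99 against 37.5% ± 4.87 (SD, n = 4 each), with overlap between the lines in the share of CERS3.

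**Figure D3:**
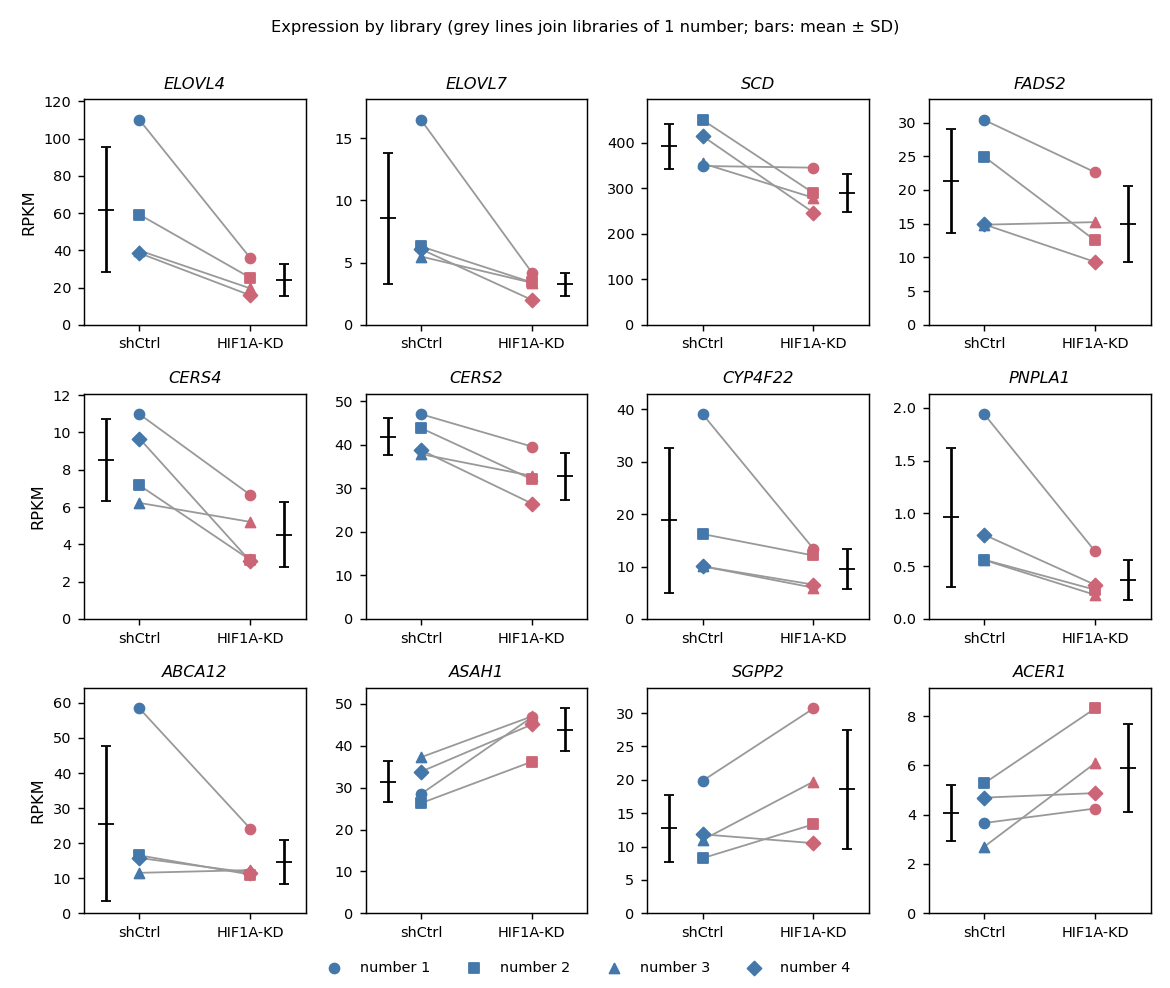
RPKM (y axis, from 0) of 12 genes in each library of shCtrl (blue) and HIF1A-KD (red); marker shape gives the library number, grey lines join libraries of 1 number, and black bars are mean ± SD of the 4 libraries. The lines slope down in every number for ELOVL4, ELOVL7, SCD, CERS4, CERS2, CYP4F22 and PNPLA1 and up in every number for ASAH1 and ACER1; shCtrl 1 stands well above the other shCtrl libraries for ELOVL4, ELOVL7, CYP4F22, PNPLA1 and ABCA12.

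The desaturation and hydroxylation of ceramides rested on DEGS1 and FA2H. DEGS1, which turns dihydroceramide into ceramide, averaged 20.1 ± 4.46 RPKM in shCtrl against 19.7 ± 5.23 RPKM in HIF1A-KD (SD, n = 4 each), with a log2 change of −0.03 (SE 0.23). FA2H, which hydroxylates the acyl chain next to its carboxyl end, held 1.15, 5.67, 7.97 and 5.03 RPKM in shCtrl 1 to 4 and 0.849, 3.98, 0.899 and 3.52 RPKM in HIF1A-KD 1 to 4. It was low in library 1 of both lines and in HIF1A-KD 3, and the wide spread left its log2 change of −1.10 (SE 0.69) unresolved (adjusted p = 0.81 unpaired and 0.273 with the block). DEGS2, which makes phytoceramides, stayed under the limit for testing, at 0.461 RPKM (shCtrl) and 0.608 RPKM (HIF1A-KD) with 0 to 74 reads a library.

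Of the 5 enzymes that glucosylate ceramide, hydrolyse it, release it from sphingomyelin or recycle its base, none passed. All 5 estimates were above 0, as were 58.7% of those of all tested genes. ASAH1, the lysosomal acid ceramidase, held 28.5, 26.3, 37.3 and 33.8 RPKM in shCtrl 1 to 4 and 46.8, 36.2, 47.0 and 45.1 RPKM in HIF1A-KD 1 to 4. Each HIF1A-KD value exceeded the shCtrl value of its number, and the groups met only where HIF1A-KD 2 lay below shCtrl 3. ASAH1 averaged 31.5 ± 4.99 RPKM in shCtrl against 43.8 ± 5.13 RPKM in HIF1A-KD (SD, n = 4 each), a log2 change of 0.48 (SE 0.17) with an adjusted p of 0.472 unpaired and 0.0721 with the block. ACER1, the alkaline ceramidase of differentiating keratinocytes, held 3.66, 5.28, 2.70 and 4.69 RPKM in shCtrl 1 to 4 against 4.25, 8.32, 6.09 and 4.88 RPKM in HIF1A-KD 1 to 4, higher in 4 of 4 numbers (log2 change 0.51, SE 0.28, adjusted p = 0.763 unpaired and 0.249 with the block). SGPP2, a phosphatase that returns sphingosine-1-phosphate to sphingosine, held 19.9, 8.26, 11.0 and 11.8 RPKM in shCtrl 1 to 4 against 30.7, 13.3, 19.7 and 10.5 RPKM in HIF1A-KD 1 to 4, higher in 3 of 4 numbers. Its log2 change was 0.50 (SE 0.37) and adjusted p of 0.859 unpaired and 0.206 with the block. UGCG, the glucosylceramide synthase, averaged 29.2 RPKM (shCtrl) and 31.0 RPKM (HIF1A-KD), and SMPD1, the acid sphingomyelinase that releases ceramide, 13.6 RPKM (shCtrl) and 16.0 RPKM (HIF1A-KD).

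In the barrier lipid group the acylceramide genes CYP4F22 and PNPLA1 had the largest differences, again without passing. CYP4F22, which hydroxylates the far end of the ultra-long chain, held 39.1, 16.2, 10.1 and 10.0 RPKM in shCtrl 1 to 4 and 13.4, 12.1, 5.97 and 6.55 RPKM in HIF1A-KD 1 to 4. The shCtrl mean of 12.1 RPKM without shCtrl 1 compares with 8.21 RPKM in HIF1A-KD without its library 1. The log2 change was −0.83 (SE 0.46), lower in 4 of 4 numbers (adjusted p = 0.771 unpaired and 0.092 with the block). PNPLA1, the transacylase that attaches linoleic acid to the hydroxylated chain, was scarce, at 1.94, 0.561, 0.558 and 0.797 RPKM in shCtrl and 0.641, 0.277, 0.228 and 0.323 RPKM in HIF1A-KD, or 28 to 244 reads a library. It too was lower in 4 of 4 numbers (log2 change −1.09, SE 0.48, adjusted p = 0.633 unpaired and 0.126 with the block). PNPLA1 passed the filter on low values through its shCtrl libraries, since 3 of its 4 HIF1A-KD values lay under 0.5 RPKM.

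ABCA12, the transporter that loads glucosylceramide into lamellar granules, was dominated by number 1, at 58.4, 16.5, 11.5 and 15.8 RPKM in shCtrl 1 to 4 and 24.1, 11.0, 12.3 and 11.5 RPKM in HIF1A-KD 1 to 4. Outside number 1 the lines lay closer together, with means of 14.6 and 11.6 RPKM, and the log2 change of −0.55 (SE 0.49) did not pass (adjusted p = 0.909 unpaired and 0.229 with the block). The lipoxygenases ALOX12B and ALOXE3, which oxidise the linoleate of acylceramides and lie as neighbours on chromosome 17, averaged 38.4 RPKM (shCtrl) and 42.2 RPKM (HIF1A-KD) and 25.2 RPKM (shCtrl) and 20.3 RPKM (HIF1A-KD). SULT2B1, the sulfotransferase that makes cholesterol sulfate, was the most abundant gene of the group per length, with 403, 308, 264 and 189.5 RPKM in shCtrl 1 to 4 against 218, 359, 142 and 217 RPKM in HIF1A-KD 1 to 4. Its HIF1A-KD value was lower in numbers 1 and 3 and higher in numbers 2 and 4 (log2 change −0.34, SE 0.31, adjusted p = 0.921). Among the squamous markers KRT4 and KRT13, suprabasal keratins of the esophageal lining, had log2 changes of 2.15 and 2.37 with SE 0.39 and 0.84 (adjusted p = 0.107 and 0.464 unpaired, 0.0786 and 0.116 with the block), while the basal keratins KRT5 and KRT14 had −0.06 and 0.13. Of the 10 squamous markers 0 passed in either fit, and 3 were higher in all 4 numbers. Their part in the results was not tested.

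Many of these genes also differed, in both lines alike, between libraries 1 and 2 and libraries 3 and 4. In shCtrl the mean of log2 levels was higher in libraries 1 and 2 than in 3 and 4 by 1.37 for FASN, and in HIF1A-KD by 1.20. CYP4F22 (1.32 and 1.01), ALOX12B (1.18 and 1.22), ELOVL1 (1.28 and 0.90) and ELOVL4 (1.04 and 0.77) leaned the same way in shCtrl and HIF1A-KD. In all, 24 of the 34 genes were higher in libraries 1 and 2 of both lines, or 70.6%, where 42.5% of all tested genes were. Another 7, or 20.6%, were lower there in both, where 39.4% of all tested genes were. ELOVL5 (−0.78 and −1.20), FABP5 (−0.75 and −0.87) and SPTLC1 (−0.69 and −0.61) were among these 7. What the numbers stand for is not given in the labels, and the split was seen in these data, so these counts are a description. A test of whether the change between the lines differed between libraries 1 and 2 and libraries 3 and 4 called 0 of the 34 genes and 0% of all tested genes (limma interaction term).

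**Figure D4:**
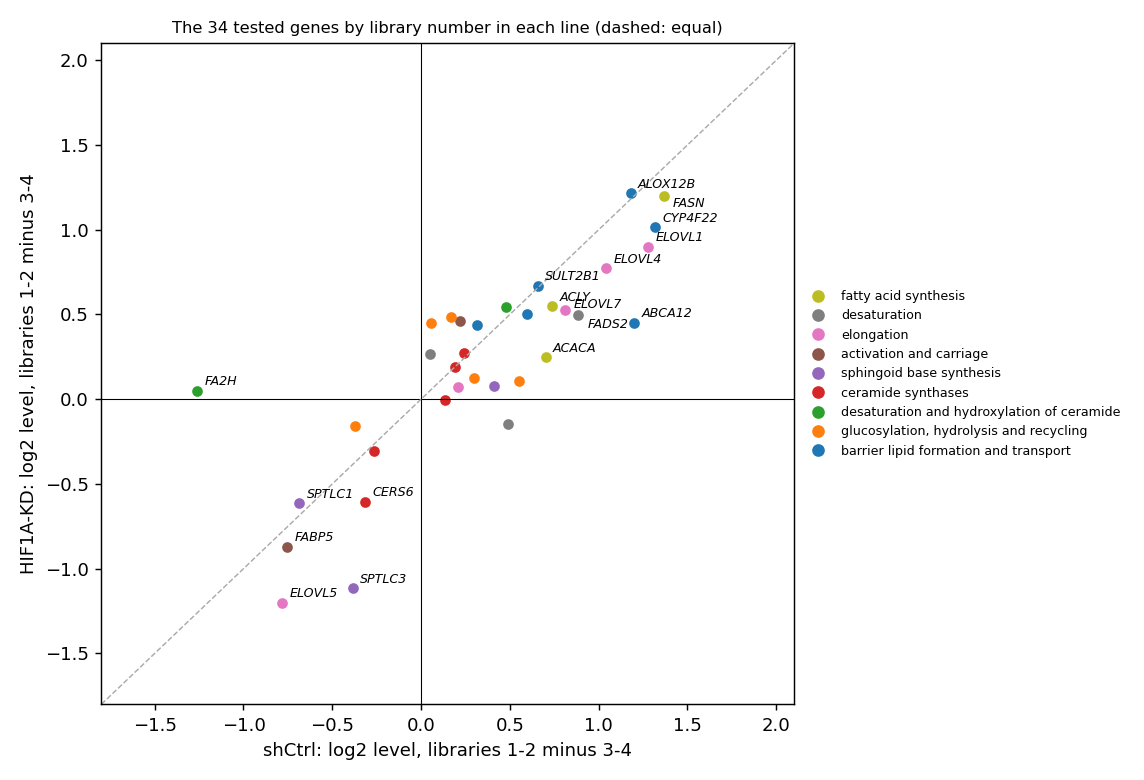
Each point is 1 of the 34 tested genes, coloured by step: the mean log2 level of libraries 1 and 2 minus that of libraries 3 and 4 in shCtrl (x axis) and in HIF1A-KD (y axis), with equality dashed. Most points lie in the upper right quadrant (24 of the 34), FASN, ALOX12B and CYP4F22 being the 3 at 1 or more on both axes, and 7 lie in the lower left, ELOVL5 and FABP5 among them; FA2H stands apart at −1.26 and 0.05.

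The rest of the pathway was taken from lists drawn up by function, with earlier results of these data known. Their counts beside the shares of all tested genes are therefore a description. Of 15 tested genes of other fatty acid synthesis and elongation (17 of 21 listed symbols were in the table), 1 fell with the block and 0 rose, and 0 passed unpaired. Over all tested genes 1.09% fell and 0.74% rose with the block. The gene that fell was SCD5, a second stearoyl-CoA desaturase, with 3.02, 1.90, 2.78 and 4.90 RPKM in shCtrl 1 to 4 and 0.801, 0.471, 1.27 and 0.863 RPKM in HIF1A-KD 1 to 4. Its groups did not overlap (log2 change −1.76, SE 0.36, adjusted p = 0.16 unpaired and 0.033 with the block). FADS3 passed neither fit (log2 change −1.42, SE 0.27, adjusted p = 0.129 unpaired and 0.0605 with the block). In this list the groups did not overlap for 3 genes with HIF1A-KD lower, FADS3 and SCD5 among them, and for 1 with HIF1A-KD higher. Over all tested genes this was so for 2.13% with HIF1A-KD lower and 3.27% with HIF1A-KD higher. The list's median log2 change was −0.03. The 2 most abundant genes, the elongation cycle enzymes TECR and PTPLB, averaged 238 RPKM (shCtrl) and 301 RPKM (HIF1A-KD) and 46.1 RPKM (shCtrl) and 37.3 RPKM (HIF1A-KD). Of 14 tested lipogenic regulators 0 passed in either fit, with a median of 0.02. Their most abundant genes were PPARD (log2 change −0.62, SE 0.31, adjusted p = 0.708) and SREBF2 (log2 change −0.02, SE 0.19), a nuclear receptor and a sterol-regulated transcription factor.

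With the block, 2 of 8 tested synthetases and carriers (CD36 and DBI) and 1 of 21 tested oxidation genes (DECR1) were called higher. Over all tested genes 0.74% were called higher in that fit. Each of the 3 was lost without the libraries numbered 1 and without those numbered 2. Of 8 tested genes among the other acyl-CoA synthetases and fatty acid carriers, 2 rose with the block and 0 fell. CD36, a membrane receptor that takes up fatty acids, went from 4.84, 1.78, 1.75 and 2.19 RPKM in shCtrl 1 to 4 to 12.0, 6.31, 8.34 and 5.94 RPKM in HIF1A-KD 1 to 4, with no overlap (log2 change 1.66, SE 0.36, adjusted p = 0.184 unpaired and 0.0196 with the block). DBI, which encodes the acyl-CoA-binding protein, held 89.1, 115, 239 and 211 RPKM in shCtrl 1 to 4 against 176, 181, 371 and 371 RPKM in HIF1A-KD 1 to 4, higher in every number (log2 change 0.77, SE 0.39, adjusted p = 0.727 unpaired and 0.0224 with the block). Of 21 tested genes of fatty acid oxidation, DECR1 alone rose with the block, 17 had estimates above 0 against 58.7% of all tested genes, and the median was 0.21. Of the 21, 9 were higher in every number, where 18.6% of all tested genes were, and 0 were lower in every number, where 10.7% were. For 3 of the 21 the groups did not overlap with HIF1A-KD higher, where 3.27% of all tested genes did so. DECR1, a reductase for unsaturated chains in the mitochondrion, held 8.22, 12.7, 16.9 and 16.9 RPKM in shCtrl 1 to 4 against 14.5, 20.3, 29.1 and 31.3 RPKM in HIF1A-KD 1 to 4 (log2 change 0.79, SE 0.31, adjusted p = 0.558 unpaired and 0.0224 with the block). The abundant oxidation genes ACADVL and HADHA averaged 125 RPKM (shCtrl) and 113 RPKM (HIF1A-KD) and 58.0 RPKM (shCtrl) and 61.8 RPKM (HIF1A-KD). Of 16 tested lipid storage and release genes 0 passed in either fit (median −0.05).

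Of 25 tested genes in the list of other sphingolipid genes, SMPD3 alone was called with the block, as a fall, and the median was −0.0044. Over all tested genes 1.09% were called lower in that fit, a share to set beside each blocked fall in this paragraph. SMPD3, a neutral sphingomyelinase, held 35.7, 12.1, 5.08 and 4.58 RPKM in shCtrl 1 to 4 and 12.1, 5.30, 1.89 and 1.91 RPKM in HIF1A-KD 1 to 4. Levels ran so differently between numbers that the groups overlapped, while the difference within each number was nearly constant (log2 change −1.33, SE 0.76 unpaired and 0.13 with the block; adjusted p = 0.774 and 0.0113). PSAP and GLTP, a lysosomal activator and a glycolipid carrier, were the most abundant at 283 RPKM (shCtrl) and 282 RPKM (HIF1A-KD) and 409.8 RPKM (shCtrl) and 295 RPKM (HIF1A-KD). Of 19 tested genes among the other barrier lipid and lamellar body genes, LIPM, a lipase of the epidermal surface layers, fell with the block, from 36.5, 7.08, 3.15 and 4.39 RPKM in shCtrl 1 to 4 to 9.59, 3.30, 0.257 and 1.29 RPKM in HIF1A-KD 1 to 4 (log2 change −1.97, SE 1.04, adjusted p = 0.747 unpaired and 0.0485 with the block). That list had 15 of 19 estimates below 0, where 41.3% of all tested genes were, and a median of −0.39. Of its 19 genes 8 were lower in every number and 2 higher in every number, where 10.7% and 18.6% of all tested genes were. The lean was not particular to that list. In the list of other fatty acid synthesis and elongation 7 of 15 were lower in every number and 4 higher. Among the other sphingolipid genes 7 of 25 were lower in every number and 3 higher. The 6 blocked calls in these lists (SCD5, CD36, DBI, DECR1, SMPD3 and LIPM) all ended without the libraries numbered 1 and also without those numbered 2, and those of SCD5 and LIPM also without those numbered 4.

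The authors' deposited table, made from the same libraries and therefore no independent evidence, lists 35 of the 36 genes. The authors' deposited table has 10 of them lower at an adjusted p of 0.05, where 5.08% of its 13627 genes are, and 1 higher, where 3.94% are. In the authors' deposited table the 10 are FASN, SCD, FADS2, ELOVL4, ELOVL7, CERS2, CERS4, ABCA12, CYP4F22 and PNPLA1, and the 1 is ASAH1. Apart from ELOVL4, none of these 11 genes of the authors' deposited table passed either fit here.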

How the data were processed

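RPKM for 25369 genes in 8 libraries came from a table that the authors deposited under a name for raw counts. The submitters' processing notes list HTSeq 0.6.1, Picard 1.129, SAMtools 1.3.1, Bowtie2 2.2.3.0, TopHat2 2.0.13, FastQC 0.11.5 and bcl2fastq, and both GRCh37/hg19 and GRCh38/hg38, with no role. How RPKM were made is not stated in the labels. Positions are called hg19 because 9 contig names in the table are haplotypes of that build. RPKM times gene length gave a whole number of reads, within 0.01, for 100% of genes with a readable length (597 had none). Those reads served for depth and limma-voom only. A further deposited table holds p-values and a moderated fold ratio, linear and log2, that the authors computed with an unnamed tool.

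Genes with at least 0.5 RPKM in 4 libraries (11899) were fitted with limma 3.58.1 in R 4.3.3 on log2(RPKM + 0.1), moderated with a trend and robustly, two-sided and without a block. Changes on this scale understate those of low genes. Adjusted p-values are Benjamini and Hochberg's over all tested genes, with 0.05 as threshold. Deviations from the group means correlated within each number (r across genes 0.754, 0.730, 0.252 and 0.257 for 1 to 4, all over 0.1), so the number was used as a pairing; this rests on the data alone. Crosswise, r was 0.463 for shCtrl 3 with HIF1A-KD 4, and 0.613 for shCtrl 4 with HIF1A-KD 3, both above the matched values, so numbers 3 and 4 may be crossed between the lines; the labelled numbers were kept. Fits were run on simulated data in which both libraries of a number shared a base level. The pairing was thus built in, so that run cannot bear on whether the labelled numbers pair the libraries. The genes of the set and the lists were chosen with earlier results of these data known. Values in every library are given for genes called in either fit and for the most abundant and most changed genes of each step; of each list, for called genes, with the 2 most abundant by their means. Other genes were chosen after their values were seen. RefSeq promoter windows were found for 30 of the 36 genes.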

Additional observations from a re-analysis of the deposited data

Results flagged for a closer look

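In 5 of 86 groups of 4 libraries examined, 1 library lay apart from the other 3, its gap to the nearest of them exceeding Dixon's 95% limit as a share of the group's range. Chance does so in about 1 in 20 groups. All 5 were libraries numbered 1. ELOVL7 in shCtrl 1 held 16.5 RPKM against 5.49 to 6.30 RPKM in the other shCtrl libraries. ABCA12 held 58.4 RPKM in shCtrl 1 against 11.5 to 16.5 RPKM, and 24.1 RPKM in HIF1A-KD 1 against 11.0 to 12.3 RPKM in the other HIF1A-KD libraries. CD36 held 4.84 RPKM in shCtrl 1 against 1.75 to 2.19 RPKM, and LIPM 36.5 RPKM in shCtrl 1 against 3.15 to 7.08 RPKM.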

How the results depend on the processing

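The count over all genes was 5 (3 higher and 2 lower) and became 218 with the replicate block, 102 with the split of libraries 1 and 2 from 3 and 4 as a term, 8 with median-of-ratios scaling (3 higher and 5 lower), 3 with a pseudocount of 1, 3 with one of 0.01, 3 with limma-voom, 1 with no filter and 0 in libraries 1 and 2 alone. Leaving out a library gave 0 to 3, and the block without the pair numbered 1, 2, 3 or 4 gave 33, 1, 195 and 182. Of the 36 genes 0 were called, 1 with the replicate block, 1 with the split as a term and 0 to 1 with the block on leaving out a pair. In the functional lists 0 were called, 6 with the block, 2 with the split and 0 to 7 with the block on leaving out a pair. Small estimates changed sign, and the cause was not tested. ELOVL1 was 0.087 in libraries 3 and 4 alone and 0.053 with the block without number 1 (−0.36 to 0.18 on leaving out a library). FABP5 was −0.032 with median-of-ratios scaling, −0.024 in libraries 1 and 2 alone, and −0.0056 and −0.086 with the block without number 1 or 3 (−0.19 to 0.22). ACSL1 was 0.062 in libraries 1 and 2 alone, and 0.026 and 0.025 with the block without number 2 or 4 (−0.18 to 0.054). DEGS1 was 0.080 with the block without number 2 (−0.19 to 0.10). ELOVL4 kept its direction in every setting, from −1.50 to −0.96 on leaving out a library. Median-of-ratios scaling moved the median of all genes from 0.06 to −0.0011. The block changed the call of ELOVL4, of HIF1A and of those 6 list genes, and of no other gene whose value is printed for both fits. Depth limits ELOVL3, DEGS2 and PNPLA1.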
